A study of Mus musculus with 5 samples.

Results

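The 7 genes described here encode the enzymes that carry liver carbon into palmitate: Pklr, Acly, Acss2, Acaca, Acacb, Fasn and Me1. They were taken by name, as every probe set whose only annotated gene symbol is one of the 7, which gave 15 of the 22690 probe sets on the array and 7 of the 12393 genes with a probe set of their own. Liver RNA of C57B/L mice was measured on 5 arrays, each carrying a pool of livers from 1 group, so every value below is a single reading with no replicate and no test was possible. The mice were 8 weeks old, had 2 weeks of acclimation, and were then given standard chow for 1 week, an atherogenic diet for 1 week, chow for 10 weeks, the atherogenic diet for 10 weeks, or that diet for 10 weeks with atorvastatin in the last 3 weeks. The atherogenic diet is a feed meant to raise blood cholesterol; the sources used here give neither its composition nor the atorvastatin dose or how many livers were pooled. The 1-week diet sample carries a source name that reads chow, against its title, description and protocols, and was grouped by its title.

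De novo fatty acid synthesis turns carbohydrate carbon into fat in the cytosol. Pyruvate kinase of the liver (Pklr) makes pyruvate at the end of glycolysis, ATP citrate lyase (Acly) splits exported citrate to acetyl-CoA, acetyl-CoA synthetase (Acss2) makes acetyl-CoA from acetate, and the acetyl-CoA carboxylases (Acaca in the cytosol, Acacb at the mitochondrial outer membrane) make malonyl-CoA. Fatty acid synthase (Fasn) builds palmitate from malonyl-CoA with NADPH, part of which comes from malic enzyme (Me1). In liver these genes are known as targets of the insulin-responsive factor SREBP-1c, encoded by Srebf1, and of the glucose-responsive factor ChREBP, encoded by Mlxipl.

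Because such genes are known for shared control at their promoters, the reference sequence around the start sites of 3 of them is shown here before their values. RefSeq windows of 300 bases, 250 before and 50 after a start site in build GRCm38.p6, exist for all 7 genes, with 9 windows in all. In the Pklr window below the capitals mark the match to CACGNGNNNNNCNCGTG, a pattern of E-box parts around a spacer, known as the carbohydrate response element. In the Fasn window they mark CCAAT, the box bound by the factor NF-Y, and TCACCC, a piece of the sterol response element. In the Acly window they mark CCAAT and GGGCGG, the GC box bound by Sp1. All were searched on both strands, and a match on the minus strand appears as its reverse complement.
Pklr, chr3:89136373-89136672, plus strand: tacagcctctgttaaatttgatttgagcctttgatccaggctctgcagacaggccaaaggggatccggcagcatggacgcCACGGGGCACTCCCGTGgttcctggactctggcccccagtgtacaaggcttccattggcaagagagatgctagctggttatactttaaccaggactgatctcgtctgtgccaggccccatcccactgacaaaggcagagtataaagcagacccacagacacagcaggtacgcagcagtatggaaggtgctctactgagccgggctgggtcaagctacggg
Fasn, chr11:120824498-120824797, minus strand: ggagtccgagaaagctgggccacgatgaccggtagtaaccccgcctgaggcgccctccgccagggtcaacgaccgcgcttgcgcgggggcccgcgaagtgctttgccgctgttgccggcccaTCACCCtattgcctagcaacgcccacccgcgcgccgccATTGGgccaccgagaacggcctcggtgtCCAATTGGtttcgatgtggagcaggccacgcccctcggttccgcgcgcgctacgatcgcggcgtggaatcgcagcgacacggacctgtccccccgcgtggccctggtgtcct
Acly, chr11:100527951-100528250, minus strand: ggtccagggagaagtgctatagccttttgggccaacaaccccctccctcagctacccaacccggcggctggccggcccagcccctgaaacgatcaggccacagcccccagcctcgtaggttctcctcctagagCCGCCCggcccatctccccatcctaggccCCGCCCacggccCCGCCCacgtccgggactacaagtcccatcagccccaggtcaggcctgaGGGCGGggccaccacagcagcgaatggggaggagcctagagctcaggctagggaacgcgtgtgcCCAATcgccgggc

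The Pklr match begins at -170 from the start site, and the same pattern was found in 15 of 32851 mouse promoter windows, or 0.0457%. It was the 1 match among the 9 windows of the 7 genes. Only this spelling was searched, and only inside the windows. The lack of a match therefore does not show that the other genes lack such an element. CCAAT was found in 6 of the 9 windows and in 37.4% of all windows. In Fasn it occurs 3 times, at -90, -62 and -59, where the last pair overlaps as CCAATTGG. GGGCGG was found in windows of Acly (4 matches), Acss2 (5) and Me1 (4), 3 of 9, against 35.7% of all windows. TCACCC was found in windows of Acss2, Fasn and Me1, against 16.2%. The longer sterol response pattern TCACNCCAC, held by 1.24% of all windows, and the E-box CACGTG, held by 7.15%, were in 0 of the 9. A match describes letters in the reference and not binding on these arrays.

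Across the 5 arrays the synthesis enzymes stood highest in the liver pool fed the atherogenic diet for 10 weeks. On the diet with atorvastatin 6 of them were within 2-fold of 10-week chow, and Acacb was under the measuring floor. Of the 6, Acss2 was farthest below that chow, with log2 ratios of -0.51 and -0.99 by its probe sets. Most genes were within 2-fold in that comparison: of all 9263 genes, 3.08% were past 2-fold higher and 2.48% lower. The signals, as deposited after scaling by the MAS5 software, are arbitrary units on a linear scale, and a floor of 138.8, the 40th percentile of all signals, was used to limit the ratios of dim readings. A probe set or gene was counted as measured if it passed the floor on at least 1 array. Of 14 measured probe sets of the 7 genes, 13 had their highest reading on the 10-week diet array, where 26.4% of all 14933 measured probe sets had theirs. By gene, with the brightest probe set standing for each, the count was 7 of 7, against 27.3% of 9853 genes. For Acaca and Acacb the lead over the next array, 1.27-fold and 1.76-fold, was within the spread between the chow arrays given below. Pklr, Acly, Fasn and Me1 were at least 2-fold above each of the other 4 arrays, a pattern that 35 of the 9853 genes, or 0.355%, had.

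**Figure D1:**
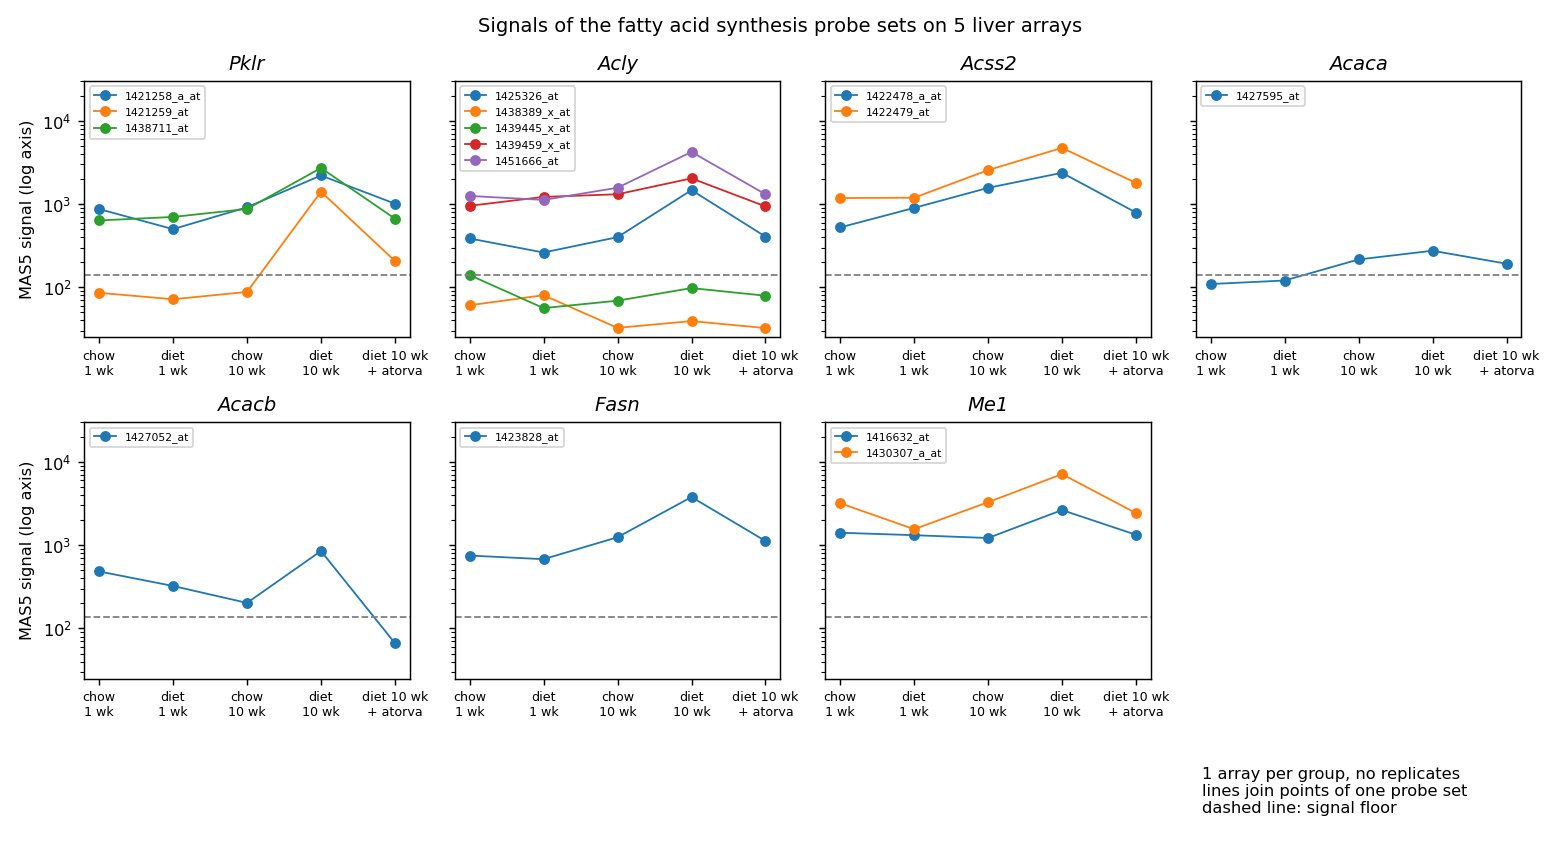
MAS5 signal on a log axis for every probe set of the 7 genes on the 5 arrays, with 1 point per array and lines joining points of the same probe set; the dashed line is the floor of 138.8. Nearly every probe set above the floor peaks on the 10-week diet array, while 2 dim Acly probe sets lie at or near the floor throughout.

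Fasn, the synthase itself, had signals of 751 on 1-week chow, 679 on 1-week diet, 1244 on 10-week chow, 3783 on 10-week diet and 1122 on diet with atorvastatin. The 10-week diet array stood alone, and the other 4 arrays lay between 679 and 1244. The log2 ratio of diet over chow at 10 weeks was 1.60, a 3.04-fold difference and the 47th largest of 9250 genes. To judge size without replicates, the pair of chow arrays gave the background: among genes as bright as Fasn, 95% differed by less than 1.83-fold between chow at 10 weeks and chow at 1 week. Time on chow, and with it age, differs within that pair, so this background is not error alone. Ordered from high to low, the only step between neighbouring Fasn readings larger than 1.83-fold was the first, and the remaining steps were 1.11, 1.49 and 1.11-fold.

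Acly had 5 probe sets, which did not all behave alike. Its brightest probe set (1451666_at) read 1252 on 1-week chow, 1121 on 1-week diet, 1570 on 10-week chow, 4222 on 10-week diet and 1310 with atorvastatin, so again a single array stood apart. A further probe set (1425326_at), annotated to the same accession, read 386, 262, 400, 1470 and 406 in that order. The log2 ratios of diet over chow at 10 weeks were 1.43 and 1.88. Probe set 1439459_x_at, of a type that can pick up related sequences, gave 0.63, from 1311 on chow to 2034 on the diet. The last pair of probe sets was of the same type and at or near the floor: 1438389_x_at never passed it, and 1439445_x_at passed it on 1-week chow alone, at 140. With all 5 averaged, the Acly ratio was 0.79 and no longer past 2-fold.

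Pklr, the pyruvate-forming step, had 3 probe sets that differed in spread. Probe set 1421259_at read 85.9 on 1-week chow, 71.9 on 1-week diet and 88.0 on 10-week chow, all under the floor, then 1408 on 10-week diet and 207 with atorvastatin. Set against the floor the 10-week diet reading was at least 10.1-fold above chow, the top of 13853 probe sets in that comparison with this floor. The brighter probe sets moved in the same direction by less. The brightest, 1421258_a_at, read 871, 500, 914, 2203 and 1011 on the arrays in the same order, a log2 ratio of 1.27, and 1438711_at read 635, 700, 872, 2710 and 667, a ratio of 1.64. Pklr also encodes the red cell isoform of pyruvate kinase. The summed signal of the 2 red cell genes measured, Hba-a1 and Alas2, was 566 on 10-week chow, 636 on the diet and 338 with atorvastatin, and its part in the Pklr values was not tested.

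Acss2, the acetate-using enzyme, differed more between the chow arrays than between diets at 10 weeks. Its brighter probe set read 1180 on 1-week chow, 1191 on 1-week diet, 2552 on 10-week chow, 4728 on 10-week diet and 1791 with atorvastatin. The 3 arrays of 10 weeks thus lay above both arrays of 1 week. The diet ratio at 10 weeks was 0.89, under 2-fold, whereas the ratio of 10-week over 1-week chow was 1.11. The second probe set gave 0.60 and 1.58 for these comparisons, from readings of 524, 898, 1564, 2372 and 790, in which the atorvastatin array lay below the 1-week diet array.

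The carboxylase genes, whose products make the same malonyl-CoA at different sites, differed in how much they varied. Acacb read 484 on 1-week chow, 324 on 1-week diet, 203 on 10-week chow, 851 on 10-week diet and 66.5 with atorvastatin, the last under the floor. Its ratio of diet over chow at 10 weeks, 2.07, was the largest of the 7 and 11th of 9250 genes. The chow readings differed too: 10-week chow was 2.39-fold below 1-week chow, past the 2.30-fold that bounds 95% of genes of its brightness. Against 1-week chow the 10-week diet ratio of Acacb was 0.81, or 1.76-fold, under 2-fold and within that spread. No step between neighbouring Acacb readings, taken at the floor where they were under it, reached 2.30-fold. The order of neighbouring Acacb arrays is thus not resolved. Acaca, the cytosolic form, read 110 and 121 at 1 week on chow and diet, under the floor, then 216 on 10-week chow, 275 on 10-week diet and 192 with atorvastatin. Its diet ratio at 10 weeks was 0.35, with a rank of 2496 of 9250 genes. No step between neighbouring Acaca readings, taken at the floor where they were under it, reached the 1.87-fold of the chow pair at that brightness, so the order of its arrays is not resolved. The single Acaca probe set is dim. The floor understates its ratios to the 1-week arrays but leaves those among the 3 arrays of 10 weeks unchanged.

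Me1, which supplies NADPH, was 2-fold above chow at 10 weeks with both of its probe sets. The brighter one read 3194 on 1-week chow, 1555 on 1-week diet, 3281 on 10-week chow, 7125 on 10-week diet and 2426 with atorvastatin, and the other read 1410, 1318, 1219, 2640 and 1333. The 10-week diet ratios were 1.12 and 1.11. At 1 week the probe sets parted, with ratios of -1.04 and -0.10.

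After 10 weeks on the atherogenic diet, 5 of the 7 genes were at least 2-fold above 10-week chow and 0 below it. Of all 9250 genes measured there, 3.63% were higher by that much and 3.07% lower. The 5 were Acacb, Fasn, Acly, Pklr and Me1, and Acss2 and Acaca lay above chow by less. The median log2 ratio was 1.27, against 0.053 over all genes. By probe set, 9 of 13 measured were past 2-fold and all 13 were positive, against 3.63% of 13853 probe sets past 2-fold. With 1-week chow as the reference the count was also 5 of 7 (background 3.65%), now Fasn at 2.33, Acss2 at 2.00, Acly at 1.75, Pklr at 1.34 and Me1 at 1.16. By their brightest probe sets Acly, Fasn, Pklr and Me1 were past 2-fold against either chow array, while Acss2 and Acacb each depended on which was used. The second Me1 probe set was under 2-fold against 1-week chow, at 0.90, and Acly 1439459_x_at against 10-week chow, at 0.63.

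**Figure D2:**
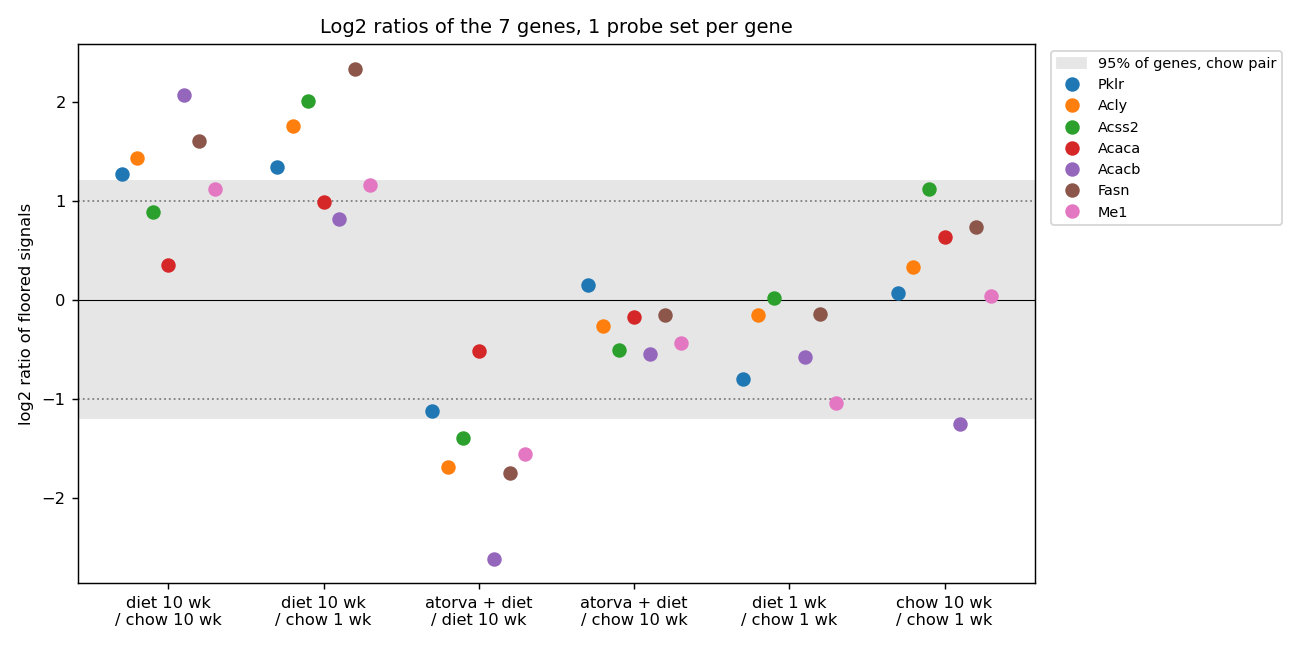
Log2 ratios of floored signals for the 7 genes, with 1 point per gene from its brightest probe set, in 6 comparisons named array over array on the horizontal axis. The grey band covers 95% of genes between the chow arrays in the signal quartile where they spread most (2.30-fold each way), and dotted lines mark 2-fold; 4 of the 7 genes lie above the band for the 10-week diet over either chow array (Pklr, Acly and Fasn for both, Acacb or Acss2 for one), and 5 below it for atorvastatin on the diet over the diet.

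After 1 week on the same diet, 0 of the 6 genes measured were at least 2-fold above chow and 1 was below it. The shares of all 8802 genes were 1.06% higher and 1.25% lower. Acaca was under the floor on both arrays, and of the 6 genes measured 5 had negative ratios, with a median of -0.37 against -0.034 over all genes. Me1 at -1.04 was the 1 gene past 2-fold lower, by its brighter probe set only. Pklr had -0.80, Acacb -0.58, Acly -0.16, Fasn -0.15 and Acss2 0.014. Among these the Me1 difference, 2.05-fold, was the 1 larger than the spread of the chow pair for genes as bright (1.83-fold); with the average of both Me1 probe sets it was under 2-fold, at -0.57. Other probe sets gave 0.14 for Pklr, 0.78 for Acss2, and -0.56 and 0.36 for Acly, so the sign at 1 week was not shared by all probe sets.

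Between the diet arrays themselves, the 10-week one exceeded the 1-week one by at least 2-fold for 6 of 7 genes (background 4.85% of 9096 genes), with Fasn at 2.48, Me1 at 2.20, Pklr at 2.14, Acss2 at 1.99, Acly at 1.91 and Acacb at 1.39. Acaca had 0.99 as a lower bound, since its 1-week reading was under the floor. Between the chow arrays, which span the same interval, 1 gene was past 2-fold higher at 10 weeks (Acss2, 1.11) and 1 lower (Acacb, -1.26), where 2.46% and 1.97% of 9101 genes were. Fasn had 0.73, Acaca 0.64, Acly 0.33, Pklr 0.071 and Me1 0.039 there. The median over the 7 genes was 1.99 between the diet arrays and 0.33 between the chow arrays.

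With atorvastatin in the last 3 weeks of the diet, 6 of the 7 genes were at least 2-fold below the diet alone and 0 above it. Among all 9316 genes 2.17% were lower by that much and 2.17% higher. Atorvastatin inhibits HMG-CoA reductase, the rate-limiting enzyme of cholesterol synthesis. Acacb was at least 6.13-fold lower, the lowest ratio of all genes in that comparison with this floor, with the treated side under the floor. Fasn was 3.37-fold lower (log2 -1.75), Acly 3.22-fold (-1.69), Me1 2.94-fold (-1.55), Acss2 2.64-fold (-1.40) and Pklr 2.18-fold (-1.12), while Acaca had -0.52. Acly was past 2-fold lower by each of its 3 measured probe sets, but its average over all 5 was -0.93. Pklr 1421259_at was 6.80-fold lower, the lowest of 13883 probe sets at this floor; with the floor at the 20th percentile Acacb had -3.68, below the -2.76 of that probe set. By probe set 11 of 13 were past 2-fold lower, against 2.28% of all, and the median over genes was -1.55.

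The diet and atorvastatin comparisons both use the 10-week diet array, with opposite signs, so its reading enters both and they are not separate evidence. Against 10-week chow, a comparison that leaves that array out, diet with atorvastatin had 0 of 7 genes past 2-fold in either direction, where 3.08% of 9263 genes were higher and 2.48% lower. The ratios ran from -0.55 for Acacb, a bound because the treated reading was under the floor, to 0.14 for Pklr, with Fasn at -0.15, Acaca at -0.17, Acly at -0.26, Me1 at -0.44 and Acss2 at -0.51. By probe set 0 of 13 measured were past 2-fold, but they ran from -0.99 for the second Acss2 probe set to 0.58 for Pklr 1421259_at. The latter is a bound, as its chow reading was under the floor. Measured against 1-week chow instead, Acacb was at least 3.49-fold lower with atorvastatin, and Acss2 and Fasn had 0.60 and 0.58. The measured Acacb readings were 203 on 10-week chow and 66.5 with atorvastatin.

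**Figure D3:**
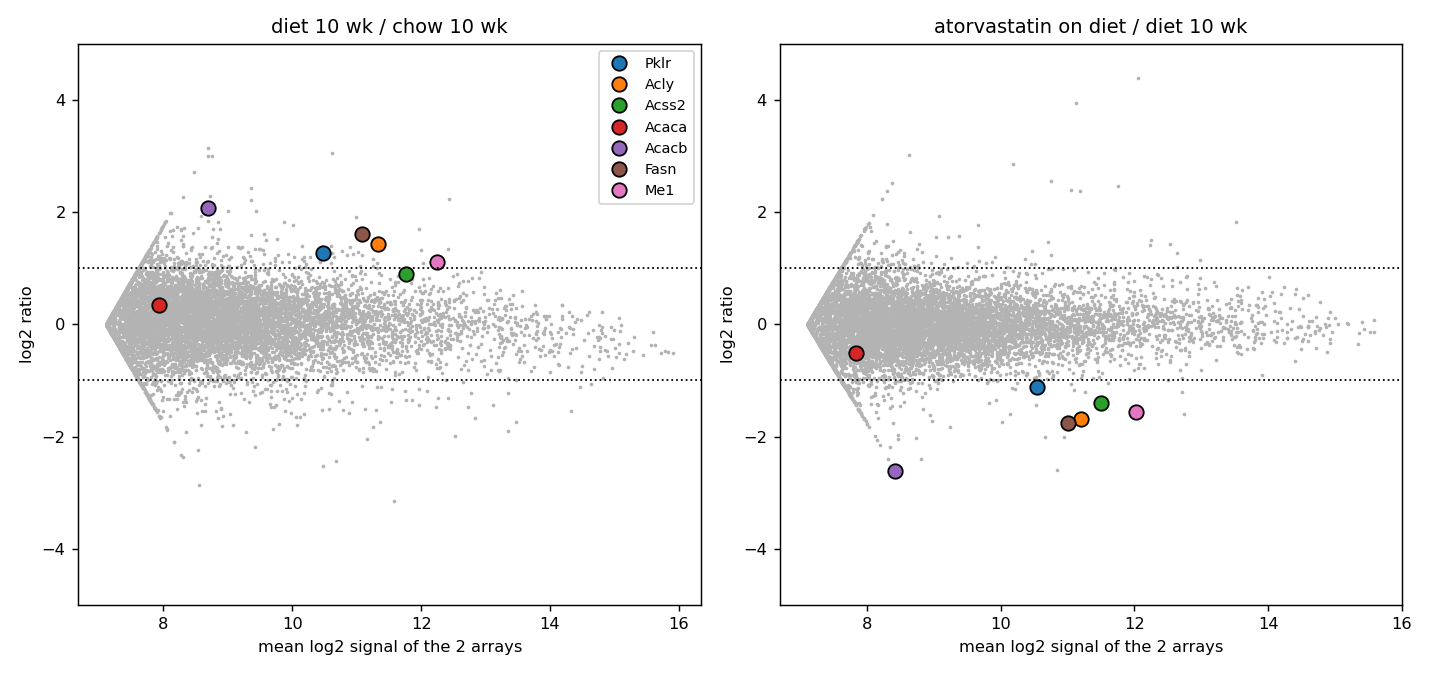
Log2 ratio against mean log2 signal of the 2 arrays compared, with 1 grey point per measured gene and the 7 genes in colour; dotted lines mark 2-fold. On the left (10-week diet over chow) 5 of the 7 lie above the upper line, and on the right (atorvastatin on the diet over the diet) 6 of 7 lie below the lower line.

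Genes around the pathway were read from lists of the same pathway. Among regulators, 4 of 11 measured were at least 2-fold higher on the 10-week diet than on chow and 0 lower. Of all 9250 genes, 3.63% were higher and 3.07% lower by that much. Thrsp, a lipogenic protein responsive to thyroid hormone and carbohydrate, read 2540 on 10-week chow, 11944 on the diet and 3924 with atorvastatin. Mid1ip1, a relative of Thrsp known to promote polymerisation of acetyl-CoA carboxylase, read 509, 1467 and 558. Mlxipl read 1281, 3047 and 1860, and Srebf1 read 1737, 3729 and 1924. All 4 were highest on the 10-week diet array, as were 27.3% of all genes. They were named for exceeding 10-week chow there, so this peak is partly set by that choice. The log2 ratios of diet over chow were 2.23 for Thrsp, 1.53 for Mid1ip1, 1.25 for Mlxipl and 1.10 for Srebf1. With atorvastatin Thrsp (-1.61) and Mid1ip1 (-1.39) were past 2-fold lower, and Srebf1 (-0.95) and Mlxipl (-0.71) were not. Srebf1 was also past 2-fold higher on 10-week than on 1-week chow, where it read 625. The median over the 11 regulators was 0.17 for the diet and -0.01 for atorvastatin. Insig2, which holds the SREBP complex in the endoplasmic reticulum, read 7487 on 10-week chow, 3785 on the diet and 3997 with atorvastatin. Its diet ratio was -0.98, and its other probe sets gave -1.69 and -1.07. The other regulators below chow on the 10-week diet were Usf1 at -0.90, Mlx at -0.80 and Nr1h3 at -0.33. Other probe sets gave -0.99 for Usf1 and 0.40 for Mlx.

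Downstream of palmitate, 1 of 10 measured genes of desaturation, elongation and triglyceride assembly was past 2-fold higher on the 10-week diet (3.63% of all genes). It was Elovl6, the elongase of palmitate, with 558 on chow, 1902 on the diet and 568 with atorvastatin, ratios of 1.77 and then -1.74. Its other probe set gave 2.17 and -1.28. The median of that list was 0.39 for the diet and -0.60 for atorvastatin, with 9 of 10 negative in the latter. Scd1, the main liver desaturase, differed between probe sets: the brighter one, among the brightest readings on the arrays, gave 0.12 for the diet and -0.49 for atorvastatin, and the other gave 2.38 and -1.94. Other probe sets of Fads2, Gpam and Dgat2 were also past 2-fold on the diet, at 1.28, 1.02 and 1.27, where the brightest gave 0.65, -0.27 and 0.28.

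By its brightest probe sets the supply side had 0 genes past 2-fold in either comparison, but other probe sets of Pgd (up to 1.66), Dlat (1.31) and Mdh1 (down to -1.46) passed it for the diet, as did those of Pgd (down to -1.15) and Mdh1 (up to 1.26) for atorvastatin. Of all genes, 3.63% were past 2-fold higher and 3.07% lower for the diet, and 2.17% each way for atorvastatin. All 7 measured genes of citrate and acetyl-CoA supply were positive on the 10-week diet by their brightest probe sets, as were 54.3% of all genes. Their median was 0.29, against 0.053 over all genes, and Pdha1, of pyruvate dehydrogenase, was the highest at 0.59. Other probe sets of Mdh1 (-1.46 to -0.68) and Pdhb (-0.057) were negative. Of the other NADPH suppliers Pgd had 0.65 and Idh1 0.52 against 10-week chow, and both were past 2-fold, at 1.06 and 1.43, against 1-week chow. Their other probe sets were under 2-fold against 1-week chow, at 0.096 to 0.98 for Pgd and 0.53 for Idh1. Against 10-week chow the other Idh1 probe set gave -0.085, and those of Pgd ran from -0.23 to 1.66. Between the chow arrays Pgd had 0.41 and Idh1 0.91. The 5 measured genes of upstream glycolysis ranged from -0.47 for Pgk1 to 0.68 for Khk, the fructokinase. On the side that removes or senses malonyl-CoA, its decarboxylase Mlycd had -0.021. Cpt1a, the carnitine palmitoyltransferase that malonyl-CoA inhibits, had -0.16. In that list 0 of 5 were past 2-fold, near the shares of all genes given above. Of these lists G6pdx and Slc25a1, among others, were not analysed here.

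**Figure D4:**
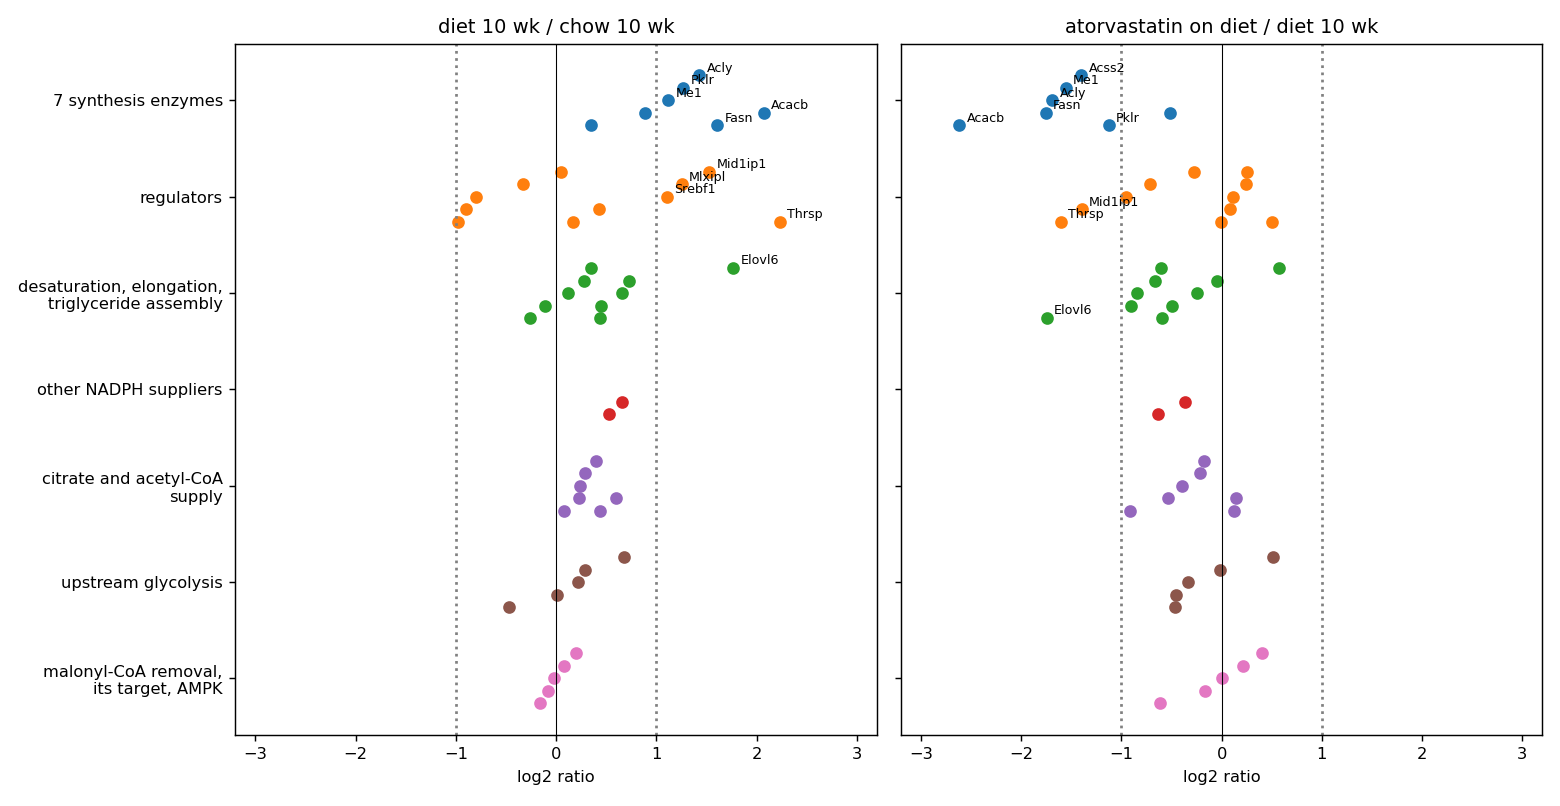
Log2 ratios of the 7 synthesis enzymes and of 6 lists around them, with 1 point per gene, for 10-week diet over chow (left) and atorvastatin on the diet over the diet (right); dotted lines mark 2-fold and genes past it are named. Points past 2-fold are found among the enzymes, the regulators and at Elovl6.

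The profile over the 5 arrays, averaged over the 7 genes after centring each on its mean log2 signal, was -0.26 on 1-week chow, -0.65 on 1-week diet, -0.022 on 10-week chow, 1.22 on 10-week diet and -0.30 with atorvastatin. Acly lay closest to it, with a root mean square difference of 0.098 on the log2 scale, and Acacb farthest, at 0.70. Of 6910 other genes above the floor on all 5 arrays, the 8 nearest were Fmo4, Dnph1, Fkbp7, Ggact, Mid1ip1, Aloxe3, St8sia3 and Cmah, at 0.21 to 0.25, where a gene flat over the arrays would have 0.64. Fmo4, a flavin-containing monooxygenase, was the nearest, with signals of 257, 139, 257, 469 and 194 in the order of the profile. These values describe 5 arrays and carry no test.

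The arrays differed in ways other than feed. Summed signals of 7 macrophage and Kupffer cell markers were 7039 on 10-week chow, 12420 on 10-week diet and 17349 with atorvastatin, against 10851 on 1-week chow and 9884 on 1-week diet, so that 10-week chow had the lowest sum. Of these markers, 3 of 6 measured were past 2-fold higher on the 10-week diet than on 10-week chow, against 3.63% of all genes. Summed signals of 7 hepatocyte markers were 327395 on 10-week chow, 246508 on 10-week diet and 227889 with atorvastatin, and 192423 on 1-week chow and 167702 on 1-week diet, so that 10-week chow had the highest sum. Endothelial markers summed to 1580, 3178 and 2321 on the 3 arrays of 10 weeks, and to 2825 and 2254 on chow and diet at 1 week. For 10-week diet over 10-week chow, Cdh5 had a log2 ratio of 2.02 and Lyve1 at least 1.78. Their other probe sets gave -0.29 and 0.53, and Pecam1, Kdr and Stab2 had 0.28, 0.46 and 0.44. Fat cell markers, which matter because fat cells also make fatty acids, summed to 908, 1119 and 1839 on the arrays of 10 weeks. On chow and diet at 1 week they summed to 1034 and 1462. Most of the sum was Lpl, at 628, 929 and 1550 on the arrays of 10 weeks, while Retn read 191, 124.5 and 161 there. The defining Adipoq, Lep and Cidea were under the floor on all 5 arrays, and Cfd and Plin1 were not analysed here. Stellate cell markers stayed between 2508 and 2854 on the 5 arrays and pancreas markers between 643 and 1071. In bulk liver, fewer cells of a type and less RNA per cell cannot be told apart. The 3' to 5' signal ratio of beta-actin was 1.73 on 10-week chow, 1.17 on 10-week diet and 1.32 with atorvastatin, spike-in signals were 7497, 2152 and 2604, and 18S ribosomal RNA signals were 737, 1002 and 13944. The part of these differences in the values above was not tested.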

How the data were processed

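The authors deposited a linear intensity for every probe set on every array, a MAS5 signal per the submitters' processing notes, from biotin-labelled cRNA of pooled livers per the labels' protocols. The 2% trimmed mean was 500.2 on each of the 5 arrays, as the scaling sets it, and so says nothing of raw brightness. The number of arrays, 1 per group, limits precision. Arrays were rescaled to a common trimmed mean, floored at the 40th percentile and taken to log2. The 64 control probe sets were left out, as were 691 probe sets with several symbols and 1606 not listed in the platform annotation. All 7 gene symbols matched assembly GRCm38.p6 by gene identifier. A gene is represented by its probe set with the highest mean log2 signal, and all probe sets are reported. A fold with 1 side under the floor is a bound. Genes past 2-fold were counted over the whole table, with no p-value. The ratio step was tested on simulated data. Named genes are the 7, preset pathway genes, those past 2-fold in preset lists, and the 8 nearest profiles, with clone-named loci passed over. Insig2, Usf1, Mlx, Nr1h3, Pdha1, Pgk1, Khk, Dlat, Mdh1, Fads2, Gpam and Dgat2 were picked outside that rule with their values known. The genes, lists and rules were chosen with earlier results of these data known. As alternatives, arrays were left unscaled, quantile normalized or passed through cyclic loess (limma 3.58.1, R 4.3.3), the floor was set at the 20th or 60th percentile or replaced by a pseudocount of equal size, probe sets of a gene were averaged or its x and s probe sets dropped, and rules of 1.5-fold and 3-fold and other chow references were used. Other steps used Python 3.11.15, numpy 2.4.6 and pandas 2.3.3.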

Additional observations from a re-analysis of the deposited data

Results flagged for a closer look

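By their brightest probe sets, 5 genes had diet ratios of opposite signs at 10 weeks and 1 week, each from 1 array per group. The difference between the times was not tested. At 1 week only the Me1 ratio, -1.04, exceeded in size the spread of the chow pair for genes as bright. The 1-week signs of Pklr, Acly, Acacb and Fasn are thus not resolved. The log2 diet ratio at 10 weeks exceeded that at 1 week by 2.65 for Acacb, 2.16 for Me1, 2.07 for Pklr, 1.75 for Fasn and 1.59 for Acly. For Acss2 both ratios were positive, and Acaca was under the floor on both 1-week arrays.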

How the results depend on the processing

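No paired analysis was possible because each group is 1 array with no replicate. Apart from the fold rules, the count of genes at least 2-fold higher on the diet at 10 weeks ran from 4 to 6 over 10 alternatives (median ratio 1.12 to 1.44), and the count lower with atorvastatin on the diet from 5 to 6 over 8 (median -1.57 to -1.49). A 3-fold rule left 2 genes higher on the 10-week diet and 3 lower with atorvastatin. For the diet at 1 week, the count lower was 0 with a pseudocount, with averaged probe sets or under a 3-fold rule, and 2 under a 1.5-fold rule; the median was -0.16 for a 20th percentile floor and -0.18 for averaged probe sets. For atorvastatin on the diet against chow, the count lower was 1 for a 20th percentile floor and for either other reference, the chow mean or 1-week chow, with medians of 0.046 and 0.22 for those references. Between the chow arrays the count lower was 0 for a 60th percentile floor, a pseudocount or a 3-fold rule, and the count higher 3 with a 1.5-fold and 0 with a 3-fold rule. Between the diet arrays the median was 1.60 when probe sets were averaged. The causes were not tested. Of 356 single-gene values under alternatives, 331 moved by less than 0.48, the standard deviation of the chow pair's log2 ratios, and 25 moved by more. Among values past 2-fold 0 changed sign, and smaller values were not counted for this. Some of those did change sign: Fasn with atorvastatin on the diet against chow ran from -0.15 to 0.58. Dim genes, Acaca and the treated Acacb reading, are limited by signal over background.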
